A study of Mus musculus with 12 samples.

Results

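The effect of losing AMPKβ1 on the transcriptome of unstimulated macrophages was examined in the 6 vehicle-treated libraries of a series of 12. AMP-activated protein kinase (AMPK) is a trimer of a catalytic α, a scaffolding β and a nucleotide-binding γ subunit that is switched on when cellular energy falls. It restrains fatty acid synthesis by phosphorylating acetyl-CoA carboxylase, acts against cholesterol synthesis as well, and phosphorylates ULK1 to start autophagy, the delivery of cell contents to the lysosome. In macrophages, which express mainly the β1 form, AMPK is known for its links to lipid handling and inflammatory tone.

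Bone marrow-derived macrophages (BMDMs) were grown from the marrow of wildtype (WT) mice and of mice null for AMPKβ1 (AMPKβ1-/-), with L929-conditioned medium as the source of M-CSF. The vehicle groups (3 WT and 3 AMPKβ1-/- libraries) received 0.1% DMSO for 6 h. The PF groups (3 and 3 libraries), used here for comparison alone, received 10 μM PF-06409577 (PF), an activator of AMPK complexes that hold β1. The sources used here do not say whether the libraries of a group came from separate mice or from separate dishes, so p values measure the spread between libraries, which may be technical. The strain, sex and age of the marrow donors were not found there either. Members were the genes that passed the low-count filter, 10822 of 12960 in the count table. The 6 vehicle libraries held between 8935609 and 14358180 counts, and a gene at 0 in a library could still have had up to 3 counts, which equals 0.196 to 0.321 CPM (counts scaled to a common library size) and covers counting error only.

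Prkab1, the gene of AMPKβ1 (chr5:116013586-116024508, minus strand, GRCm38), was measured first. In WT libraries 1, 2 and 3 it stood at 43.4, 44.2 and 45.3 CPM, or 406, 479 and 455 counts. In AMPKβ1-/- libraries 1, 2 and 3 it stood at 8.39, 7.70 and 6.05 CPM, or 92, 118 and 57 counts. The groups did not overlap, and 16.6% of the WT level remained in AMPKβ1-/- BMDMs. The log2 fold change was -2.57 ± 0.12 (SE, n = 3 and 3; adjusted p = 8.9e-09, edgeR's quasi-likelihood test), the smallest p of the genes tested. Where in the transcript the remaining counts lay was not analysed here.

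The other AMPK subunits did not share this pattern. Prkab2, the gene of the other β subunit, stood at 6.20, 6.37 and 5.77 CPM in WT and at 10.7, 7.37 and 5.62 CPM in AMPKβ1-/- libraries, which overlap, and the log2 difference was 0.37 ± 0.24 (adjusted p = 0.20, edgeR). Prkag2, a γ subunit gene, was level between the genotypes to within its error (log2 difference -0.01 ± 0.10). Prkag1, the other γ subunit gene detected, fell by 0.33 on the log2 scale (adjusted p = 0.0099, edgeR), a call lost without WT library 1 (-0.25) or AMPKβ1-/- library 2 (-0.26). Prkaa1, the gene of the catalytic α1 subunit, stood at 18.7, 21.9 and 20.5 CPM in WT and at 32.3, 44.1 and 47.1 CPM in AMPKβ1-/- libraries, a rise of 1.01 ± 0.14. Prkaa2, the gene of α2, had 0 to 3 counts in each vehicle library. The calls for Prkag1 and Prkaa1 were lost, and the sign for Prkaa1 turned, in the fit described next.

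A gene was called a differentially expressed gene (DEG) where its Benjamini-Hochberg adjusted p was below 0.05 and its log2 fold change was above 0.8 or below -0.8. In AMPKβ1-/- BMDMs 1740 genes were higher (16.1% of those tested) and 191 lower (1.76%). By the adjusted p alone 6465 genes differed (59.7%), of which 3216 were higher (29.7%) and 3249 lower (30.02%), so the changes in both directions were about as many, while those past the fold threshold were mostly rises. The median log2 fold change of the tested genes was -0.03. The vehicle libraries of the genotypes did not overlap for 30.9% of the tested genes on the higher side and 32.03% on the lower side. This held for 1693 of the 1740 genes called higher and 183 of the 191 called lower, so a lack of overlap adds little to a call.

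The size and direction of a gene's difference followed the base composition of its transcript. Among 506 genes whose transcripts had less than 40% G and C, 405 were called higher and 0 lower, and the median log2 fold change was 1.43. Among 462 with 60% or more, 0% were called higher and 4.76% lower, with a median of -0.44. Across genes, Spearman's correlation of the log2 fold change with GC content was -0.76, given as a description since genes are not independent replicates. Within a library, the log2 level moved with GC content by 0.36 to 0.72 per 10 percentage points in the WT vehicle libraries and by -0.36 to -0.10 in the AMPKβ1-/- vehicle libraries, relative to the mean of all 12. These slopes differed by -0.80 between the genotype means, and the groups did not overlap (exact permutation test, two-sided p = 0.10, the smallest that 3 against 3 libraries allow). Base composition and genotype can therefore not be told apart for a single gene from these libraries. For this reason each result is given also from a fit in which the trend with GC content and transcript length was removed from each library. In that fit 478 genes were called (4.43%), 257 higher (2.38%) and 221 lower (2.05%), and 3714 (34.4%) passed the adjusted p alone. The correlation with GC content was then -0.04. Transcript length differed as well, with medians as fitted of 4435 bases for genes called higher and 2387.5 for those called lower. The median of the tested genes was 3125.5. The parts of GC content and of length in the trend were not separated.

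**Figure D1:**
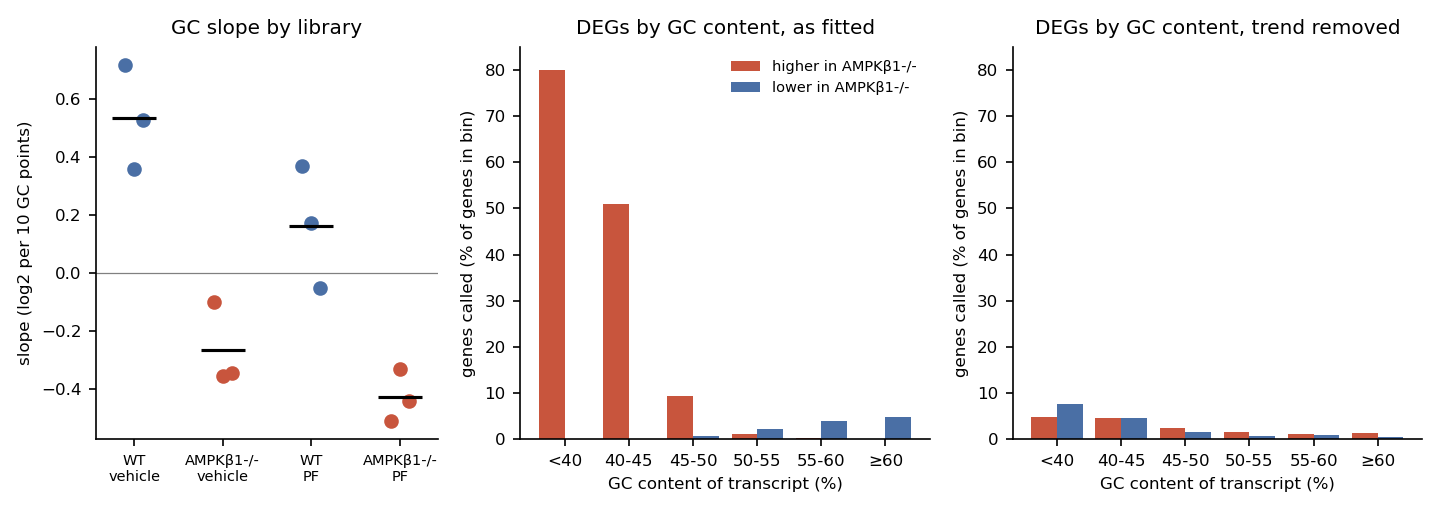
Left, slope of the log2 level with GC content for each of the 12 libraries (points; bars are group means); middle and right, share of genes called higher or lower in AMPKβ1-/- vehicle libraries in 6 bins of GC content, before and after the trend was removed. Of 506 genes below 40% GC 405 were called higher as fitted, against 0 of 462 at 60% and above, and the shares were 4.74% and 1.30% with the trend removed.

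The calls that the fits shared were a minority. Of the 1740 genes called higher, 213 were called higher with the trend removed as well, and the median log2 fold change of the 1740 went from 1.24 to 0.39. The sign of 233 of them turned. Of the 191 genes called lower, 61 stayed called, none of those in both fits changed sign, and the median went from -0.96 to -0.69. Without a GC content, and so without a value in the other fit, were 8 of the 1740 and 1 of the 191. Where a pair of log2 values follows a gene, the first is as fitted and the second with the trend removed.

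**Figure D2:**
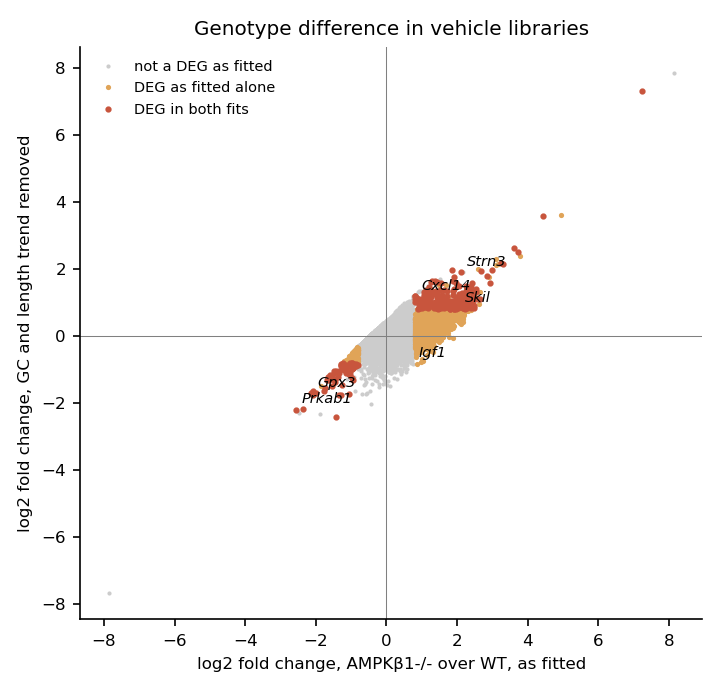
Log2 fold change of each tested gene (AMPKβ1-/- over WT, vehicle) as fitted (x axis) and once the GC and length trend was removed (y axis). Prkab1 and Gpx3 lie near the diagonal at the lower left, Strn3 at 2.11 and 1.90 lies near it at the upper right, and Igf1 at 0.75 and -0.83 changed sign; 274 genes were DEGs in both fits.

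The largest falls beside Prkab1 held in both fits. Gpx3, an extracellular glutathione peroxidase that reduces peroxides, stood at 66.5, 53.5 and 48.4 CPM in WT and at 14.3, 11.6 and 12.7 CPM in AMPKβ1-/- libraries. Its log2 fold change was -2.13 ± 0.16 (adjusted p = 4.9e-06, edgeR), and -1.71 ± 0.12 with the trend removed. The highest AMPKβ1-/- library was thus far below the lowest WT library. Tox2, an HMG-box transcription factor gene, went from 12.3, 12.9 and 15.8 CPM to 3.10, 4.70 and 4.88 CPM, a log2 fold change of -1.69 as fitted and -1.32 with the trend removed. Phgdh, the first enzyme of serine synthesis from glycolytic 3-phosphoglycerate, went from 24.4, 22.6 and 19.7 CPM to 7.93, 7.63 and 8.48 CPM (-1.48 and -1.05). These genes were taken from DEGs whose libraries did not overlap between the genotypes, so their lack of overlap follows from the choice.

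Several further falls lay in genes of the cell surface and of calcium and actin control. Cd22, a sialic acid-binding inhibitory receptor known best from B cells, fell by 1.48 ± 0.17 on the log2 scale, from 12.6 ± 0.799 CPM (mean and SD, n = 3) to 4.53 ± 0.833 CPM, and by 1.33 with the trend removed. Atp2a3, a calcium pump of the endoplasmic reticulum, went from a mean of 30.3 ± 3.30 CPM (SD, n = 3) to 12.7 ± 1.79 CPM (-1.24 and -0.97). Mfge8, a secreted bridge between phosphatidylserine on dying cells and integrins of the phagocyte, stood at 106, 88.9 and 99.8 CPM in WT and at 42.0, 42.6 and 40.3 CPM in AMPKβ1-/- libraries (log2 fold change -1.23, and -0.80 with the trend removed). Gpr162, an orphan receptor gene, and Lsp1, an F-actin binding protein of leukocytes, had the next smallest p among falls, with log2 fold changes of -1.07 and -1.05 and, with the trend removed, of -0.66 and -0.72. H2ac23, a replication-dependent histone gene rich in GC, fell by 1.20 as fitted and was at -0.75 with the trend removed (adjusted p = 0.026, edgeR).

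Of the 61 genes called lower in both fits, 19 had a mean of at least 10 CPM in WT. Given here are 5 of these, chosen after their values were seen because the log2 fold change differed between the fits by less than 0.05, act in matrix turnover, adhesion, metabolism and Fc recognition. Hpse, the heparanase that cleaves heparan sulfate, stood at 124, 118 and 131 CPM in WT and at 62.0, 66.0 and 68.6 CPM in AMPKβ1-/- libraries (-0.92 and -0.89). Tns1, which ties integrins to actin, went from a mean of 73.8 to 37.5 CPM (-0.97 and -0.98). Plau, the urokinase-type plasminogen activator, went from 41.8 to 21.6 CPM (-0.95 and -0.97). Pck2, the mitochondrial phosphoenolpyruvate carboxykinase, went from 101.8 to 55.4 CPM (-0.88 and -0.84), and Fcrls, an Fc receptor-like gene of microglia and macrophages, from 306.7 to 163.0 CPM (-0.91 and -0.90). For each of these genes the 3 AMPKβ1-/- libraries lay below the 3 WT libraries, as for 183 of the 191 genes called lower.

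The largest rises were in transcripts poor in G and C. The 8 with the largest log2 fold change among genes of at least 10 CPM, Ddx3y, Pik3c2a, Pde3b, Trpm7, Xiap, Ranbp2, Mpp5 and Zbtb33, had GC contents of 36.1% to 44.0%, against a median of 50.1% over the tested genes. Ddx3y, a Y-linked RNA helicase gene, went from 1.71, 2.40 and 1.39 CPM to 11.1, 12.5 and 11.2 CPM (log2 fold change 2.65 ± 0.22). The Y-linked genes Eif2s3y, Kdm5d and Uty were higher too, without overlap. The sex of the marrow donors was not found, and its part in these rises was not tested. Pik3c2a, a class II phosphoinositide 3-kinase of endocytic membranes, rose by 2.58 ± 0.23, and Trpm7, an ion channel with a kinase domain, by 2.40 ± 0.33. With the trend removed the 8 stood at 0.77 (Xiap, an inhibitor of caspases) to 1.58 (Pde3b, a cyclic AMP phosphodiesterase), each past the adjusted p (edgeR). Clock, a core transcription factor of the circadian oscillator, rose by 2.28 as fitted and 0.97 with the trend removed. Clec4d, a C-type lectin receptor for mycobacterial glycolipid, had one of the 5 smallest p values among rises as fitted (0.85 ± 0.08), and was at -0.11 with the trend removed (adjusted p = 0.63, edgeR).

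Rises that stayed past the fold threshold in both fits included regulators of RNA, chromatin and signalling. Zfc3h1, a factor that brings the nuclear RNA exosome to polyadenylated transcripts, stood at 6.52, 9.69 and 7.36 CPM in WT and at 29.1, 28.8 and 29.4 CPM in AMPKβ1-/- libraries (1.88 ± 0.15, and 1.23 with the trend removed). Another 5, chosen after their values were seen for a small adjusted p in both fits, are given here. Skil, the SKI-like corepressor of SMAD proteins in TGF-β signalling, stood at 19.4, 29.9 and 27.8 CPM in WT and at 91.9, 112 and 112 CPM in AMPKβ1-/- libraries (2.03 and 0.82). Strn3, a regulatory subunit of protein phosphatase 2A, went from a mean of 3.12 to 13.5 CPM (2.11 and 1.90). Tet2, the dioxygenase that oxidizes 5-methylcytosine in DNA, went from 8.49 to 26.9 CPM (1.66 and 0.91). Secisbp2l, related to the SECIS-binding protein of selenoprotein synthesis, and Ptger4, the EP4 receptor for prostaglandin E2, rose by 1.58 and 0.89 as fitted and by 1.01 and 1.03 with the trend removed. Ptger4 and Cxcl14, described with the chemokines, had GC contents of 50.9% and 55.4%, above the median, and larger values after the removal.

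**Figure D3:**
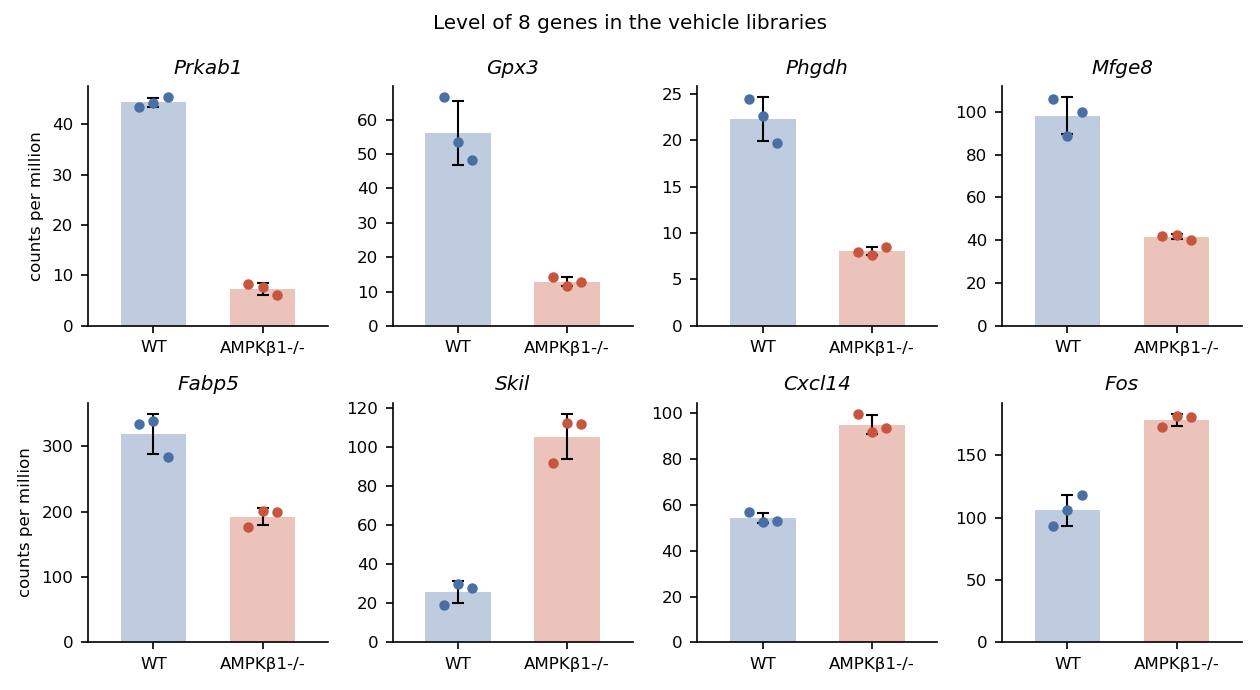
Level in CPM of 8 genes in the 3 WT and 3 AMPKβ1-/- vehicle libraries (points; bars are means and error bars SD). Prkab1, Gpx3, Phgdh, Mfge8 and Fabp5 were lower and Skil, Cxcl14 and Fos higher in each AMPKβ1-/- library than in each WT library. Such a lack of overlap was seen for 32.03% of all tested genes on the lower side and 30.9% on the higher side.

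One gene was detected in AMPKβ1-/- libraries alone with more than a few counts. Capn11, a calpain protease gene on chr17:45630204-45659325 known for its expression in testis, had 0 counts in each WT vehicle library, while the AMPKβ1-/- ones held 11, 17 and 32 counts in ascending order. It was at least 5.36-fold higher in AMPKβ1-/- BMDMs, against a floor of 3 counts in each WT library. With PF it had 0 counts in the WT libraries and 16 to 27 in the AMPKβ1-/- libraries. Capn11 was chosen after its values were seen, and it is 1 of 2 genes in the table with 0 counts in each vehicle library of a genotype and 5 or more in each of the other.

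Gene lists are described by how many of their tested members rose or fell at an adjusted p below 0.05 (edgeR), to be read against 29.7% and 30.02% of all tested genes as fitted, and against 14.5% and 19.96% with the trend removed. No test of a list was made. When library size alone replaced TMM scaling, the median of all genes moved from -0.03 to 0.18, so directions of lists are relative to that shift.

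Among cholesterol synthesis genes falls outnumbered rises in AMPKβ1-/- BMDMs by the adjusted p, but not among DEGs. Of 22 members 12 fell and 5 rose, and the median log2 difference was -0.40. As fitted 3 members were DEGs that rose, not named here, and 2 were DEGs that fell. None was a DEG with the trend removed. With the trend removed 14 fell and 0 rose, with a median of -0.33, and 10 members fell in both fits. Mvd, which makes isopentenyl pyrophosphate, went from 58.0 ± 5.50 CPM (mean and SD, n = 3) to 30.1 ± 0.903 CPM, without overlap (-0.95 and -0.48). Fdps, the farnesyl pyrophosphate synthase, fell by 0.84, Fdft1, the squalene synthase, by 0.69, and Dhcr7, of the last reduction step, by 0.71 on the log2 scale, and with the trend removed they fell by 0.47, 0.54 and 0.46. Cyp51 and Hmgcs1 differed from these as fitted. Cyp51, the lanosterol demethylase, was at -0.16 (adjusted p = 0.11, edgeR) and, with the trend removed, at -0.53, a value like those above. Hmgcs1, which makes HMG-CoA, rose by 0.52 as fitted (adjusted p = 0.037, edgeR), a call lost without WT library 1 (0.35) or without any 1 of the AMPKβ1-/- libraries (0.50 to 0.56), and was at -0.21 with the trend removed.

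Of 13 genes of SREBP control and sterol uptake 6 fell and 5 rose, and 5 fell and 1 rose with the trend removed. The rises were 2 without WT library 1 or AMPKβ1-/- library 2 or 3 and 3 without WT library 3. Srebf2, the transcription factor of the cholesterol pathway, fell by 0.51 and 0.27 in the fits and Npc2, which carries cholesterol out of the lysosome, by 0.46 and 0.31. Mylip, a ubiquitin ligase of sterol uptake control, rose by 0.43 and 0.50. Insig1, which holds SREBP in the endoplasmic reticulum, was at -0.01 ± 0.12 and -0.05.

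Fatty acid synthesis genes fell more often than they rose. Of 15 members 8 fell and 3 rose (1 rose without AMPKβ1-/- library 3), with a median of -0.25, and 7 fell and 0 rose with the trend removed (median -0.23). Scd2, a stearoyl-CoA desaturase, stood at 48.1, 51.3 and 54.6 CPM in WT and at 34.9, 33.8 and 30.5 CPM in AMPKβ1-/- libraries (-0.63 and -0.76). Tecr, of fatty acid elongation, fell by 0.74 and 0.29, and the desaturases Fads1 and Fads2 by 0.46 and 0.57 as fitted and by 0.27 each with the trend removed. Of 22 fatty acid oxidation genes 11 fell and 3 rose, and 8 fell and 4 rose with the trend removed. Without WT library 1 the falls were 7. Acads, a short-chain acyl-CoA dehydrogenase, Acaa2, a thiolase, Etfb, of electron transfer from these enzymes, and Hadha, of the trifunctional protein, fell by 0.76, 0.62, 0.76 and 0.46 as fitted and by 0.31, 0.31, 0.30 and 0.36 with the trend removed.

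Lipid uptake, storage and export genes moved in both directions. Fabp5, a cytosolic fatty acid carrier of macrophages, stood at 334, 339 and 284 CPM in WT and at 177, 200 and 199 CPM in AMPKβ1-/- libraries (-0.73 ± 0.08, and -1.04 ± 0.07 with the trend removed). Plin3, a coat protein of lipid droplets, fell by 0.71 and 0.58. The scavenger receptors of modified LDL Cd36 and Msr1 rose as fitted, Cd36 from 60.6, 89.8 and 84.1 CPM to 147, 239 and 252 CPM (1.44 ± 0.22) and Msr1 by 1.23. With the trend removed neither passed, at 0.17 and -0.02 (adjusted p = 0.20 and 0.87, edgeR). Abca1, the transporter that loads cholesterol onto apolipoprotein A-I, stood at 54.6, 81.9 and 77.9 CPM in WT and at 121, 157 and 143 CPM in AMPKβ1-/- libraries (0.97 ± 0.15, and 0.48 with the trend removed). Other genes of efflux fell, among them Pltp, the phospholipid transfer protein (-0.73 and -0.31), Scarb1, the HDL receptor (-0.60 and -0.22), and Rxrb, a partner of LXR (-0.63 and -0.20). Of 14 efflux and LXR genes 9 fell and 2 rose, and 5 fell and 2 rose with the trend removed. Of 13 genes of lipid uptake and droplets 6 fell and 3 rose, and 5 fell and 0 rose with the trend removed.

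More lysosome genes fell than rose in AMPKβ1-/- BMDMs, in each fit. Of 40 members 26 fell and 6 rose, with a median of -0.43, and with the trend removed 26 fell and 0 rose, with a median of -0.27. In both fits 20 of the members fell. No member passed the fold threshold as fitted, and 1 did with the trend removed. That member, Atp6v0d2, a subunit of the proton pump, was named after its values were seen and was at -0.0033 and -0.90. Cd68, a lysosomal glycoprotein of macrophages, stood at 2995, 2628 and 2672 CPM in WT and at 1732, 1627 and 1672 CPM in AMPKβ1-/- libraries (-0.72 ± 0.08, and -0.40 with the trend removed). Hexa, a subunit of β-hexosaminidase, stood at 2810, 2400 and 2352 CPM in WT and at 1614, 1544 and 1547 CPM in AMPKβ1-/- libraries (-0.68 and -0.31). Atp6v0a1 and Atp6v0d1, subunits of the proton pump that acidifies the lysosome, fell by 0.69 and 0.68, and by 0.49 and 0.35 with the trend removed. Ctsd, the aspartic protease cathepsin D and the most abundant member described here, went from a mean of 15587 to one of 9845 CPM (-0.66 and -0.27). Lamp2, a membrane protein of the lysosome whose transcript is poor in GC, rose by 0.68 as fitted and fell by 0.58 with the trend removed.

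Many lysosomal promoters carry the E-box core of the CLEAR element, bound by TFEB and related factors. The letters CACGTG, which read the same on both strands, were looked for in the RefSeq promoters (GRCm38.p6) from 250 bases before to 50 after each start. They were in 13 of 29 lysosome genes with a promoter (44.8%), against 8.09% of the 27025 genes with one and 12.2% of the tested genes. The longer form TCACGTGA, which contains the core, was in 6 of 29 (20.7%) against 1.12% of genes with a promoter and 2.37% of the tested genes. The core CACGTG was in 7 of the 15 members that fell in both fits and in 6 of the other 14, which include members that fell in 1 fit. No test of this was made. To show the core (capitals) in members that fell, 4 of the 7 are printed, chosen after their values were seen, 5′ to 3′ on the strand of the gene, with the core 48 to 140 bases before the start. They are from chr19:4855059-4855118 (Ctsf, plus strand), chr11:119267796-119267855 (Gaa, plus strand), chr9:114401003-114401062 (Glb1, plus strand) and chr11:101069994-101070053 (Naglu, plus strand).
Ctsf: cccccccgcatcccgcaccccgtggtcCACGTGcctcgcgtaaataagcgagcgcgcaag
Gaa: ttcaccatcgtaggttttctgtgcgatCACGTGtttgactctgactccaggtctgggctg
Glb1: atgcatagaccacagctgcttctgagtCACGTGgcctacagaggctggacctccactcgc
Naglu: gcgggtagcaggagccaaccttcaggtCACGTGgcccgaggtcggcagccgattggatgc

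The genes behind these promoters had been chosen among members that fell, and their values follow. Naglu, which removes N-acetylglucosamine from heparan sulfate, stood at 322, 275 and 292 CPM in WT and at 193, 170 and 170 CPM in AMPKβ1-/- libraries (-0.74 and -0.31). Ctsf, a cysteine protease, Gaa, the acid α-glucosidase of glycogen, and Glb1, the β-galactosidase, fell by 0.68, 0.59 and 0.55 as fitted and by 0.27, 0.22 and 0.26 with the trend removed.

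Autophagy genes moved in both directions, as all tested genes did. Of 42 members 14 rose (33.3%) and 16 fell (38.1%) as fitted, against 29.7% and 30.02% of all tested genes. With the trend removed 6 rose and 11 fell. Rb1cc1, which scaffolds the ULK1 complex, rose by 1.96 and 0.52, Mitf, a factor related to TFEB, by 1.25 and 0.42, and Ulk2, a kinase related to ULK1, by 0.79 and 0.39. Map1lc3a, an LC3 protein of the autophagosome membrane, fell by 0.66 and was at -0.19 with the trend removed. Atg5, of the conjugation system, rose by 0.83 and 0.34. Its partner Atg12 rose by 0.42 as fitted (0.31 without WT library 1 and 0.34 without AMPKβ1-/- library 2, neither of which passed) and fell by 0.28 with the trend removed.

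Genes of AMPK signalling outside the trimer moved in both directions too, as all tested genes did. Of 13 AMPK subunits and upstream kinases 4 rose and 5 fell (3 fell without WT library 1 or without AMPKβ1-/- library 2), and 2 rose and 3 fell with the trend removed. Cab39, a partner of the upstream kinase LKB1, rose by 1.11 and 0.61, and Map3k7, or TAK1, by 1.08 and 0.43. Of 36 AMPK substrates and genes of mTORC1 control 8 rose and 12 fell, and 6 rose and 8 fell with the trend removed. Txnip, an arrestin that holds back glucose uptake and is cleared after AMPK phosphorylates it, stood at 1274, 1355 and 1326 CPM in WT and at 857, 956 and 967 CPM in AMPKβ1-/- libraries (-0.51 and -0.55). Fnip1, a folliculin partner, rose by 2.22 and 0.81. Rps6kb1, the S6 kinase, and Akt1s1, an inhibitor of mTORC1, were at 1.42 and -0.58 as fitted and did not pass with the trend removed (0.08 and -0.12; adjusted p = 0.73 and 0.15, edgeR).

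As fitted, immediate early genes and NF-κB pathway genes had about as many rises as falls, as all tested genes did. Once the trend was removed these lists had more rises than falls. Of 24 immediate early genes 7 rose and 6 fell as fitted, and 9 rose and 0 fell with the trend removed, with medians of -0.08 and 0.14 (0.13 with library size alone). Fos, the AP-1 subunit, stood at 93.3, 107 and 118 CPM in WT and at 173, 182 and 180 CPM in AMPKβ1-/- libraries (0.75 ± 0.09, and 0.99 with the trend removed). Dusp1, a phosphatase of MAP kinases, rose from 34.7, 29.5 and 36.9 CPM to 51.8, 46.7 and 48.9 CPM (0.54 and 0.91). Klf6 rose by 0.85 and Klf2 fell by 0.56 as fitted, and neither Krüppel-like factor passed with the trend removed (-0.06 and -0.10; adjusted p = 0.63 and 0.32, edgeR).

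Of 25 NF-κB pathway genes 8 rose and 8 fell as fitted (5 fell without WT library 1), and 12 rose and 1 fell with the trend removed, with medians of -0.06 and 0.10. The sign of the median thus turned, as it did with library size alone (0.15). Nfkbiz, the inducible nuclear IκBζ, stood at 36.5, 44.4 and 50.1 CPM in WT and at 76.1, 79.4 and 66.3 CPM in AMPKβ1-/- libraries (0.76 ± 0.12 and 0.78). Chuk, the kinase IKKα, rose by 1.41 and 0.47, and Tbk1, a kinase of interferon induction, by 0.75 and 0.34. Tank, a scaffold of TBK1, rose by 1.17 as fitted and was at -0.05 with the trend removed. The DNA-binding subunits Rela and Nfkb2 fell by 0.36 and 0.35 as fitted and were at 0.07 and 0.00 with the trend removed (adjusted p = 0.33 and 0.99, edgeR). Mapk14, the p38α kinase, fell by 0.19 as fitted, a call lost when WT library 1 or AMPKβ1-/- library 2 or 3 was left out, and was at 0.00 with the trend removed.

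Receptors of the innate response showed how far a value could differ between the fits. Tlr4, the receptor for lipopolysaccharide, stood at 9.19, 17.2 and 13.8 CPM in WT and at 37.7, 44.4 and 51.9 CPM in AMPKβ1-/- libraries (1.72 ± 0.25), and rose by 0.52 ± 0.12 with the trend removed. Tlr8 rose by 1.19 as fitted and was at 0.09 with the trend removed. Tlr9, the sensor of CpG DNA, fell by 0.32 as fitted (a call lost without WT library 3 or AMPKβ1-/- library 2 or 3) and was at 0.01 with the trend removed. The adaptor Ticam1 fell by 0.59 and 0.22, and Irak2 by 0.33 as fitted and was at -0.09 with the trend removed. Of 24 Toll-like receptor and adaptor genes 8 rose and 6 fell (3 fell without AMPKβ1-/- library 2), and 2 rose and 9 fell with the trend removed.

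Of 18 chemokine and chemokine receptor genes 2 rose and 3 fell in both fits, and of 18 cytokine genes 4 fell in both. Cxcl14, a homeostatic chemokine, stood at 56.7, 52.5 and 53.0 CPM in WT and at 99.6, 91.6 and 93.2 CPM in AMPKβ1-/- libraries (0.81 ± 0.10, and 1.20 ± 0.08 with the trend removed). Ccrl2, a non-signalling chemerin receptor, fell by 0.80 and 0.77. The monocyte receptor Ccr2 rose by 1.77 as fitted and was at 0.44 with the trend removed (adjusted p = 0.12, edgeR). As fitted 6 of the chemokine and receptor genes rose and 4 fell, and 2 rose and 8 fell with the trend removed. Of the cytokine genes 1 rose (2 without WT library 2 or 3 or AMPKβ1-/- library 3) and 6 fell, and 3 rose and 5 fell with the trend removed. The one that rose as fitted, Igf1, went from 111, 127 and 112 CPM to 157, 214 and 216 CPM (0.75) and fell by 0.83 with the trend removed. Il16, a ligand of CD4, fell by 0.67 and 0.59, Tgfb1 by 0.60 and 0.15, and Tnfsf12, or TWEAK, by 0.63 and 0.16.

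Antigen presentation genes were mostly lower in AMPKβ1-/- BMDMs as fitted. Of 26 members 20 fell and 1 rose, with a median of -0.49, and 11 fell and 2 rose with the trend removed (median -0.22). H2-T23, a nonclassical class I gene, stood at 754, 738 and 782 CPM in WT and at 440, 415 and 457 CPM in AMPKβ1-/- libraries (-0.79 and -0.44). H2-DMa, of class II peptide loading, fell by 0.80 and 0.42. The class I genes H2-Q6 and H2-Q7 fell by 1.05 and 0.87 as fitted and by 0.68 and 0.42 with the trend removed, with the reservation that they are near-identical in sequence and that reads may have been split between them.

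Interferon-stimulated genes moved in both directions, as all tested genes did. Of 44 members 13 rose (29.5%) and 16 fell (36.4%) as fitted, against 29.7% and 30.02% of all tested genes. With the trend removed 2 rose and 5 fell. The rises were 7 without WT library 1 or AMPKβ1-/- library 2 and 8 without WT library 2, and the falls 8 without WT library 3 and 9 without AMPKβ1-/- library 2. Ifitm3, which blocks viral fusion, stood at 1194, 1031 and 1056 CPM in WT and at 613, 623 and 630 CPM in AMPKβ1-/- libraries (-0.81 and -0.55). Eif2ak2, the RNA-sensing kinase PKR, rose by 1.17 and 0.46, and the RNA sensor Ifih1 rose by 1.20 as fitted and was at 0.25 with the trend removed (adjusted p = 0.24, edgeR).

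Axl and Gas6 fell in both fits. Axl, a receptor tyrosine kinase of efferocytosis, stood at 303, 283 and 327 CPM in WT and at 184, 159 and 160 CPM in AMPKβ1-/- libraries (-0.86 ± 0.09, and -0.65 with the trend removed). Gas6, its ligand, stood at 455, 424 and 423 CPM in WT and at 258, 241 and 244 CPM in AMPKβ1-/- libraries (-0.81 and -0.42). Of the 31 scavenger, phagocytic and Fc receptor genes to which these belong, 10 fell and 9 rose, close to the shares of all genes, and 12 fell and 2 rose with the trend removed. Among 14 complement genes C1qb fell by 0.57 and C1qc by 0.41, chains of C1q that bind apoptotic cells and immune complexes, and Cfp, or properdin, by 0.53 as fitted. None of these 3 passed with the trend removed (-0.12, 0.04 and -0.11; adjusted p = 0.070, 0.56 and 0.16, edgeR). In all 5 complement genes fell and 3 rose, and 2 fell and 3 rose with the trend removed.

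**Figure D4:**
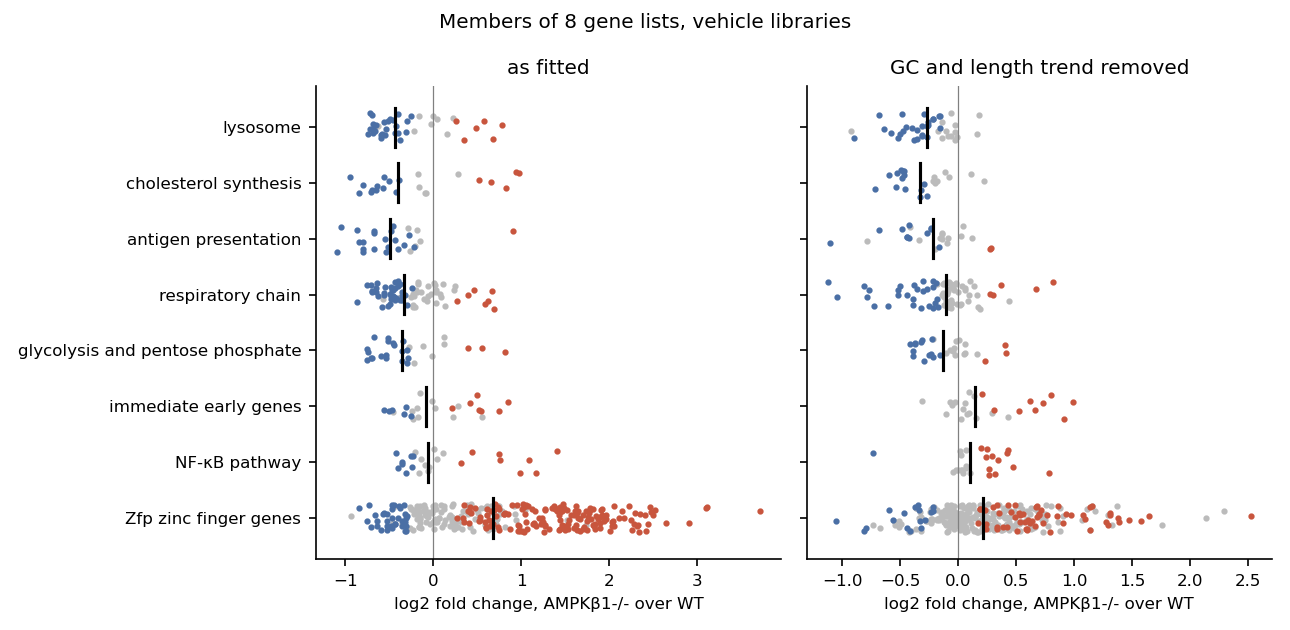
Log2 fold change (AMPKβ1-/- over WT, vehicle) of each tested member of 8 gene lists as fitted and once the GC and length trend was removed; red and blue points rose and fell at an adjusted p below 0.05, grey points did not pass, and black bars are medians. The medians of the lysosome and cholesterol synthesis members lie left of 0 in both panels (-0.43 and -0.40, then -0.27 and -0.33). As fitted 6 lysosome and 5 cholesterol synthesis members rose. The 300 Zfp genes moved from a median of 0.68 to 0.21.

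The libraries had the profile of macrophages in both genotypes. The 29 macrophage genes were above 3 counts in at least 1 library of each genotype, and their summed level was 64702 to 70373 CPM in WT and 53868 to 56946 CPM in AMPKβ1-/- vehicle libraries. In bulk RNA, fewer cells of a type and less RNA per cell cannot be told apart. Of the 29 genes 16 fell and 5 rose (1 rose without AMPKβ1-/- library 2, 2 without WT library 1 and 3 without WT library 2 or AMPKβ1-/- library 3), and 10 fell and 3 rose with the trend removed. Gpnmb, a glycoprotein of lipid-laden and lysosome-stressed macrophages, stood at 12986, 11336 and 12442 CPM in WT and at 7673, 6777 and 6975 CPM in AMPKβ1-/- libraries (-0.78 ± 0.08 and -0.76). Laptm5, a lysosomal membrane protein of leukocytes, fell by 0.68 and 0.31, and Irf8, a transcription factor of the myeloid lineage, by 0.59 and 0.25.

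Several defining markers of other cell types were at or near the floor, while other members of their lists were above it. The neutrophil genes S100a8, S100a9 and Mpo had 0 to 4 counts, the T cell gene Cd3d 0 or 1 and the dendritic cell genes Flt3 and Zbtb46 1 to 5 counts in each vehicle library. The B cell gene Cd79b was above the floor, with 12 to 22 counts in WT and 9 to 11 in AMPKβ1-/- libraries. At the floor in all 3 vehicle libraries of each genotype were 7 of 12 granulocyte and 4 of 9 lymphocyte genes in the table. The same held for 3 of 11 dendritic cell genes and 0 of 8 osteoclast genes. Of the granulocyte list 12 of 20 genes were in the table, and their summed level of 110 to 118 CPM in WT and 86.6 to 95.2 CPM in AMPKβ1-/- libraries was mostly Csf3r, which macrophages also express (means of 108 and 85.1 CPM). The lymphocyte list summed to a median of 47.7 CPM in WT and 76.4 CPM in AMPKβ1-/- libraries, with overlap, the dendritic cell list to 283 to 302 and 204 to 216 CPM, the osteoclast list to 138 to 152 and 119 to 122 CPM and the erythroid and mast cell list to 12.3 to 14.7 and 17.1 to 20.2 CPM. The stromal list summed to 3.14 to 5.67 CPM in WT and to 5.61 to 17.6 CPM in AMPKβ1-/- libraries, the highest in AMPKβ1-/- library 1, where the collagen gene Col1a1 had 37 counts against 1 to 10 in the others. Its part in other results was not tested. Of markers that passed the filter, Cd4 fell from 13.3 to 6.01 CPM, Itgax from 7.50 to 3.92 CPM, Kit from 1.29 to 0.51 CPM and the osteoclast genes Ctsk, Acp5 and Itgb3 by 0.72, 0.95 and 0.92 on the log2 scale. Each of these passed with the trend removed, at -0.95, -0.84 and -1.47 for Cd4, Itgax and Kit and at -0.64, -0.54 and -0.91 for the osteoclast genes. Bst2 fell by 0.45 and Il7r rose by 0.92 as fitted, and neither passed with the trend removed (adjusted p = 0.63 and 0.35, edgeR). Pf4, a chemokine of platelets and macrophages, rose by 0.55 and 0.69.

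In the respiratory chain and in glycolysis falls outnumbered rises. Of 74 nuclear-encoded subunits of the respiratory chain 38 fell and 7 rose (4 rose without WT library 1 or 2 or AMPKβ1-/- library 2), with a median of -0.34, and 27 fell and 5 rose with the trend removed (median -0.10). Cox4i1, of cytochrome c oxidase, stood at 904, 769 and 701 CPM in WT and at 432, 430 and 445 CPM in AMPKβ1-/- libraries (-0.86 and -0.39). Ndufs8 of complex I and Uqcrc1 of complex III fell by 0.71 and 0.75 as fitted and by 0.32 and 0.30 with the trend removed. Of 28 genes of glycolysis and the pentose phosphate pathway 19 fell and 3 rose, and 13 fell and 3 rose with the trend removed. Gapdh, Hk3, a hexokinase, Gpi1, the glucose phosphate isomerase, and Tkt, the transketolase, fell by 0.74, 0.75, 0.67 and 0.70 as fitted and by 0.30, 0.39, 0.39 and 0.42 with the trend removed. Among 20 genes of mitochondrial biogenesis and nuclear receptors 9 rose and 5 fell (3 fell without AMPKβ1-/- library 2), and 5 rose and 2 fell with the trend removed. The nuclear receptors Nr3c1, of glucocorticoids, Nr1d2, or REV-ERBβ, and Rora rose by 1.79, 1.61 and 2.09 as fitted and by 0.72, 0.63 and 0.77 with the trend removed, as did Dnm1l, of mitochondrial fission (1.69 and 0.65).

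Redox and stress genes split. Of 25 NRF2 and antioxidant genes 8 rose and 11 fell, and 8 rose and 6 fell with the trend removed. Txnrd1, the thioredoxin reductase, rose by 0.46 and 0.50, Gpx4, which reduces lipid peroxides, fell by 0.77 and 0.28, and Keap1, which targets NRF2 for degradation, by 0.59 and 0.23. Gclm rose by 0.60 as fitted and was at -0.45 with the trend removed (adjusted p = 0.080, edgeR). Of 28 genes of ATF4 and the unfolded protein response, with Phgdh among them, 7 rose and 13 fell (8 fell without AMPKβ1-/- library 2), and 4 rose and 4 fell with the trend removed. The chaperones Hsp90b1 and Dnajb9 rose by 1.09 and 0.97 as fitted, and with the trend removed Hsp90b1 rose by 0.47 and Dnajb9 was at -0.02.

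Cell cycle genes fell at a share near that of all genes. Of 44 members 15 fell and 10 rose (3 to 6 rose when WT library 1 or 3 or AMPKβ1-/- library 2 or 3 was left out), and 11 fell and 0 rose with the trend removed, against 19.96% and 14.5% of all genes. Cdk4, a kinase of the G1 phase, fell by 0.54 and 0.23, Cdkn1a, the inhibitor p21, by 0.64 and 0.29, and Mcm5, of the replicative helicase, by 0.60 and 0.42. Of 43 genes of the actin cytoskeleton and its control 23 fell and 10 rose, and 14 fell and 7 rose with the trend removed. Capg, a capper of actin filaments, fell by 0.70 and 0.25, and Rock2, a kinase that raises actomyosin contraction, rose by 1.88 and 0.68.

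Families of housekeeping and of zinc finger genes lay on opposite sides. Of 84 cytosolic ribosomal protein genes 45 fell and 11 rose, and 31 fell and 10 rose with the trend removed. Rps14 and Rpl28 fell by 0.84 and 0.75 as fitted and by 0.40 and 0.45 with the trend removed, with the reservation that ribosomal protein genes have near-identical pseudogenes. Of 78 mitochondrial ribosomal protein genes 39 fell and 8 rose, and 25 fell and 8 rose with the trend removed. Of 300 Zfp genes, which encode zinc finger DNA-binding proteins, 159 rose and 35 fell (22 fell without WT library 1 and 18 without AMPKβ1-/- library 2), and 59 rose and 17 fell with the trend removed. The median of the Zfp genes went from 0.68 to 0.21. Zfp874a rose by 2.29 and 1.14, Zfp120 by 2.17 and 0.85, and Zfp445, which maintains imprints, by 1.84 and 0.93. Zfp322a, Klf7 and Klf8, transcription factor genes singled out in the study, rose by 1.84, 0.91 and 0.69 as fitted, and none of the 3 passed with the trend removed (0.49, 0.20 and -0.19; adjusted p = 0.18, 0.40 and 0.60, edgeR). The call for Klf8 was lost also without WT library 1 or without any 1 of the AMPKβ1-/- libraries.

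Genes beside Prkab1, which may be inherited together with the targeted locus, were examined next. Of 75 tested genes within 5 Mb of Prkab1 none was a DEG. By the adjusted p alone 39 fell and 4 rose, and 16 fell and 9 rose with the trend removed. The median GC content of these neighbours was 55.1%. Acads, described above, and Selplg, the ligand of P-selectin, lie at -894 and -2181 kb from Prkab1 in coordinate order, and they were at -0.76 and -0.59 as fitted and at -0.31 and -0.14 with the trend removed, where Selplg did not pass (adjusted p = 0.072, edgeR). Pebp1, a Raf kinase inhibitor, and Fbxw8, of a ubiquitin ligase, were at -0.60 and -0.55 as fitted and at -0.16 and -0.32 with the trend removed. These were the 4 neighbours with the smallest p as fitted, Prkab1 aside.

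The genotype difference was then compared with that in the PF libraries, which share no library with the vehicle comparison. With PF, 1320 genes were higher in AMPKβ1-/- BMDMs (12.2%) and 223 lower (2.06%), and with the trend removed 437 were higher and 312 lower. Of the 1740 genes called higher with vehicle 1732 had the same sign with PF and 1136 were called (65.3% of the vehicle calls and 86.1% of the PF calls). Of the 191 called lower 180 had the same sign and 84 were called (44.0% and 37.7%). The PF libraries carried a GC difference of the same direction (slopes differed by -0.59), so this likeness is not independent of base composition. Of the genes called in both fits with vehicle, 178 of 213 higher and 37 of 61 lower ones were called with PF as well. Prkab1 was at -2.13 and Gpx3 at -2.11 with PF, and at -1.90 and -1.81 with the trend removed.

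The genotype difference itself differed between vehicle and PF for 45 genes at an adjusted p below 0.05 (0.416% of those tested; 1550 at an unadjusted p below 0.05, edgeR), and for 17 of these by more than 0.8 on the log2 scale (0.157%). Among the 45 were Lsp1 and Clec4d, both called with vehicle. Lsp1 was at -1.05 with vehicle and -0.42 with PF, and Clec4d at 0.85 and 0.29. Il16 fell with vehicle and was at 0.02 with PF. The lipid genes differed in the other direction. Insig1 and Cyp51, which did not pass with vehicle as fitted, were at -1.08 and -1.01 with PF, and Fabp5 and Scd2, lower with vehicle, were lower still with PF at -1.63 and -1.53. Fos was at 0.75 with vehicle and 1.43 with PF. With the trend removed, Lsp1 was at -0.72 with vehicle and -0.18 with PF, Clec4d at -0.11 and -0.44, Il16 at -0.59 and -0.04 and Fos at 0.99 and 1.62. In that fit Insig1 was at -0.05 with vehicle and -1.04 with PF, Cyp51 at -0.53 and -1.19, Fabp5 at -1.04 and -1.60 and Scd2 at -0.76 and -1.68.

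**Figure D5:**
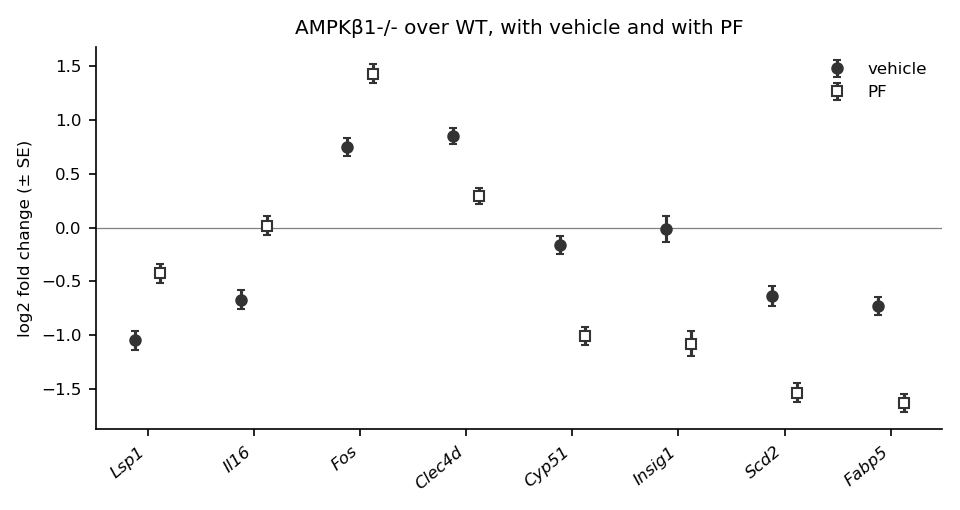
Log2 fold change of AMPKβ1-/- over WT (± SE) with vehicle (filled circles) and with PF (open squares) for the 8 genes named in the text whose genotype difference differed between the treatments. Lsp1, Il16 and Clec4d were nearer 0 with PF, and Fos and the lipid genes Cyp51, Insig1, Scd2 and Fabp5 were farther from 0.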

How the data were processed

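RNA of 12 BMDM libraries (4 groups of 3) was made into directional libraries. The authors ran Trim Galore for trimming and Salmon for quantification (versions, genome build and bias options not given in the sources used here), and deposited estimated counts per gene as whole numbers, without normalization. Counts were used as deposited. Libraries are numbered as the count columns, and 0 columns lacked a group. edgeR 4.0.16 in R 4.3.3 fitted the 4 group means to all 12 libraries (filterByExpr, TMM, robust quasi-likelihood test), the contrast being AMPKβ1-/- minus WT with vehicle, and the study's DEG thresholds were used. SE are the absolute fold change over the root of F. CPM are TMM-normalized, with a prior count of 2 on the log scale. GC content and length came from GENCODE M21 (GRCm38), known for 10784 tested genes, and their trend was removed per library as an offset from natural splines (5 degrees of freedom). Of 12960 symbols 84 matched no annotated gene. The fits were tested on simulated data. With a GC trend simulated, 1243 unchanged genes were called as fitted and 3 once the trend was removed. Without a simulated trend 2 were called in either fit. The simulated trend was linear in GC content and held no length term, so removal of a length trend was not tested. It was a property of the libraries alone, and the changed genes were drawn without regard to GC content. The simulation therefore cannot show whether the removal also takes out genotype differences that follow GC content, or which calls as fitted are false.

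Named genes were the AMPK subunits, the 8 largest rises and falls among DEGs without overlap and of at least 10 CPM, the 5 smallest p per direction, up to 4 members of each list (the neighbours of Prkab1 included) by p, genes the study discusses, DEGs within 5 Mb of Prkab1 and up to 6 DEGs with a treatment interaction. Others are marked as chosen after their values were seen. The members and gene lists were chosen with earlier results of these data known. Alternatives covered scaling (also limma 3.58.1 and DESeq2 1.42.0 as tests), filters, the call rule, the libraries fitted, each vehicle library left out and a replicate block. Results on some genes are not reported here.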

Additional observations from a re-analysis of the deposited data

Results flagged for a closer look

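For 8 of the genes named in the text the genotype difference (AMPKβ1-/- minus WT, log2) differed between vehicle and PF by the interaction test of the 12-library fit (edgeR, adjusted p below 0.05). The difference with vehicle minus that with PF was -0.62 for Lsp1, -0.69 for Il16, -0.68 for Fos and 0.56 for Clec4d. For the lipid genes it was 1.07 for Insig1, 0.84 for Cyp51, 0.90 for Fabp5 and 0.90 for Scd2. The number of genes past the adjusted p was 45 as fitted and 186 once the GC and length trend was taken out, and the groups differ in that trend, whose part in these differences was not tested.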

How the results depend on the processing

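Of 165 genes named, 160 passed as fitted, against 59.7% of all tested genes. Many had been named for a small p or a large change in these libraries, so this share follows in part from the choice. When 1 vehicle library was left out 9 lost the call or the sign. With the GC and length trend removed 20 turned sign, 17 lost the call at the same sign and 2 gained it. The 1931 calls (1740 higher, 191 lower) became 6465 (3216 and 3249) by the adjusted p alone and 582 (563 and 19) when tested against 0.8 with glmTreat. They became 478 (257 higher) with the GC and length trend removed. The lower calls were 64 with library size alone and 120 with at least 10 counts in every library. The share of calls that were higher was 90.1% as fitted, 97.3% with library size alone and 53.8% with the trend removed. With PF the 1543 calls (1320 and 223) became 5094 (2613 and 2481) by the adjusted p alone, 547 (504 and 43) with glmTreat and 749 (437 higher) with the trend removed, and the lower calls were 133 with library size alone. The 17 interaction calls became 38 with DESeq2, 45 by the adjusted p alone, 0 with glmTreat (1550 at an unadjusted p below 0.05 in edgeR's test) and 26 with the trend removed. When 1 vehicle library was left out the calls ranged from 1566 to 2140 (higher 1411 to 1905, lower 155 to 235), those with PF from 1546 to 1568 (1321 to 1343 and 220 to 229), and the interaction calls from 4 (without AMPKβ1-/- library 2; 6 without library 3) to 29 (without AMPKβ1-/- library 1). Prkab1 ranged from -2.67 to -2.47 and the GC slope difference from -0.88 to -0.71. Apart from the alternatives named, causes were not tested.

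Same-numbered WT and AMPKβ1-/- libraries had correlations of their deviations of 0.22, 0.25 and -0.11, so the numbers were not taken as pairs. With the replicate block 1930 genes were called (1743 higher, 187 lower), 1564 with PF and 15 for the interaction. With the replicate block and the trend removed there were 474 (255 higher), and 744 with PF (436 higher).

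Signs turned for these log2 differences. With the trend removed, and then with the replicate block as well, Prkab2 was at -0.0037 and -0.017, Prkaa1 at -0.18 in both, Prkag2 at 0.080 and 0.076, Clec4d at -0.11 in both, Hmgcs1 at -0.21 and -0.20, Msr1 at -0.023 and -0.020, Lamp2 at -0.58 in both, Atg12 at -0.28 in both, Tlr9 at 0.011 and 0.0091, Tank at -0.045 and -0.037, Rela at 0.066 in both, Nfkb2 at 0.0016 and 0.0025 and Mapk14 at 0.0047 and 0.0043. Likewise Igf1 was at -0.83 and -0.82, Klf6 at -0.057 and -0.053, Klf8 at -0.19 and -0.18, C1qc at 0.044 in both, Il7r at -0.12 in both, Gclm at -0.45 in both and Dnajb9 at -0.024 and -0.023. Prkag2 was at 0.0063 with DESeq2's size factors, 0.046 with upper quartile scaling, 0.20 with library size alone, 0.014 with at least 10 counts in every library, 0.0091 with DESeq2, 0.0084 in the 6 vehicle libraries alone and 0.067 without AMPKβ1-/- library 3. Insig1 was at 0.0065 with DESeq2's size factors and with DESeq2, 0.045 with upper quartile scaling, 0.19 with library size alone, 0.013 with at least 10 counts in every library, 0.0078 in the 6 vehicle libraries alone, 0.095 without WT library 3 and 0.039 without AMPKβ1-/- library 3. Atp6v0d2 was at 0.015 with DESeq2's size factors, 0.014 with DESeq2, 0.054 with upper quartile scaling, 0.20 with library size alone, 0.0031 with no filter beyond a count above 0, 0.021 with at least 10 counts in every library and 0.017 in the 6 vehicle libraries alone, and it turned without WT library 2 or 3 or AMPKβ1-/- library 1. Over the libraries left out it ranged from -0.17 to 0.22. Over the same libraries Prkag2 ranged from -0.098 to 0.067 and Insig1 from -0.12 to 0.095. With library size alone Cyp51 was at 0.048 and Mapk14 at 0.019.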

Other observations

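Zbed6 and Gm4737, genes with log2 fold changes of 8.13 and -7.86, did not pass the test. Zbed6 had 0 CPM in the 3 WT vehicle libraries and in AMPKβ1-/- library 1, and 5.22 and 3.71 CPM in AMPKβ1-/- libraries 2 and 3. Gm4737 had 7.66 CPM in WT library 3 and 0 CPM in the other 5 vehicle libraries. Gm3414 was the other gene with 0 counts in each WT vehicle library and 5 or more in each AMPKβ1-/- one (5, 5 and 14 counts in ascending order), at least 2.12-fold higher against the floor of 3 counts per library, and with PF it had 0 to 10 counts in AMPKβ1-/- and up to 2 in WT libraries. The share of counts in the 100 most abundant genes was 30.2% to 32.2% for WT vehicle libraries and 27.4% to 27.8% for AMPKβ1-/- vehicle libraries, which did not overlap. The Y-linked genes Eif2s3y, Kdm5d and Uty had counts in each vehicle library, with 25 to 58, 87 to 152 and 11 to 18 in WT and 119 to 260, 198 to 354 and 64 to 115 in AMPKβ1-/- libraries. Like Ddx3y, they were higher in AMPKβ1-/- libraries without overlap.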
